A study of Mus musculus with 2 samples.

Results

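The killer cell lectin-like receptor genes and the related Clec2 genes were examined in DNase-seq data from aged mouse thymus. They were taken by symbol: protein-coding genes on chromosome 6 in the GENCODE vM21 basic annotation whose names begin with Klra, Klrb, Klrc, Klrd, Klre, Klrg, Klrh, Klri, Klrk or Clec2. The rule found 32 genes among 21668 protein-coding genes of the autosomes and the X chromosome, and no gene whose name begins with Klrh. Of the 32 genes, 29 lay in the natural killer complex at chr6:128609227-131247362 (mm10, the GRCm38 assembly), and 3 lay outside it, namely Klrg2, Clec2l and Klrg1.

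DNase-seq maps accessible chromatin from the cuts that DNase I leaves in nuclei. Here it was applied to whole thymus of female adult B6CASTF1/J mice aged 18 to 20 months, in 2 libraries of 1 group, with no other age, sex, strain or tissue to set beside them. The labels number the libraries as biological replicates 1 and 2 and give them separate biosample records but the same donor record. Whether they came from separate animals is not stated, and their spread may therefore be technical. The mice carry a B6 and a CAST copy of each chromosome, while mm10 is the C57BL/6J sequence. How reads from the CAST copies of these genes were placed is not given in the sources used here, and its effect was not tested.

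The mouse natural killer complex encodes type II membrane proteins with a lectin-like domain, which natural killer cells and some T cells use to sense other cells. The Ly49 receptors (Klra genes) and the NKG2 receptors with their partner CD94 bind MHC class I molecules or relatives of them. Several NKR-P1 receptors (Klrb1 genes) instead bind Clec2 proteins, which the same stretch of chromosome encodes, so that receptor and ligand genes lie interleaved. In the thymus most cells are developing T cells, and natural killer cells are a minor population.

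Each library came with a shorter and a longer peak list. There were 50648 and 49872 peaks in the shorter lists of replicates 1 and 2, and 77453 and 79004 in the longer lists. A peak has a single signal value from the authors, whose scale and depth are not stated. The median signal in the shorter lists was 1.66 in replicate 1 and 1.43 in replicate 2. Values in the text are from the shorter lists, as deposited, unless the longer lists are named, and means are given ± SD over the 2 libraries. The tissue label was set against marker genes. Open promoters were found in both libraries at 10 of 12 genes of thymocytes and T cells and 4 of 14 genes of natural killer cells that are not lectin-like receptors. They were found at 0 of 5 genes of B cells, 0 of 5 of myeloid cells and 2 of 6 of thymic epithelium, beside 53.8% of all protein-coding genes. By the longer lists the counts were, in the same order, 12 of 12, 7 of 14, 2 of 5, 2 of 5 and 2 of 6, beside 58.3% of all genes.

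A promoter was called open if the centre of a peak lay within 1 kb of a start site in both libraries. Of the 32 receptor and Clec2 genes, 3 were open by this rule, which is 9.38% (exact 95% binomial interval 1.98% to 25.0%), beside 53.8% of all protein-coding genes. The 3 genes were Clec2d, Clec2i and Klrd1, and each library alone gave 3 open genes, beside 55.4% of all genes in replicate 1 and 55.1% in replicate 2. Both ligand-type genes had peaks of moderate height, while the peak of the receptor subunit Klrd1 was weak. In whole tissue, fewer cells of a type and less accessibility per cell cannot be told apart, and this holds for every low or missing peak below.

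**Figure D1:**
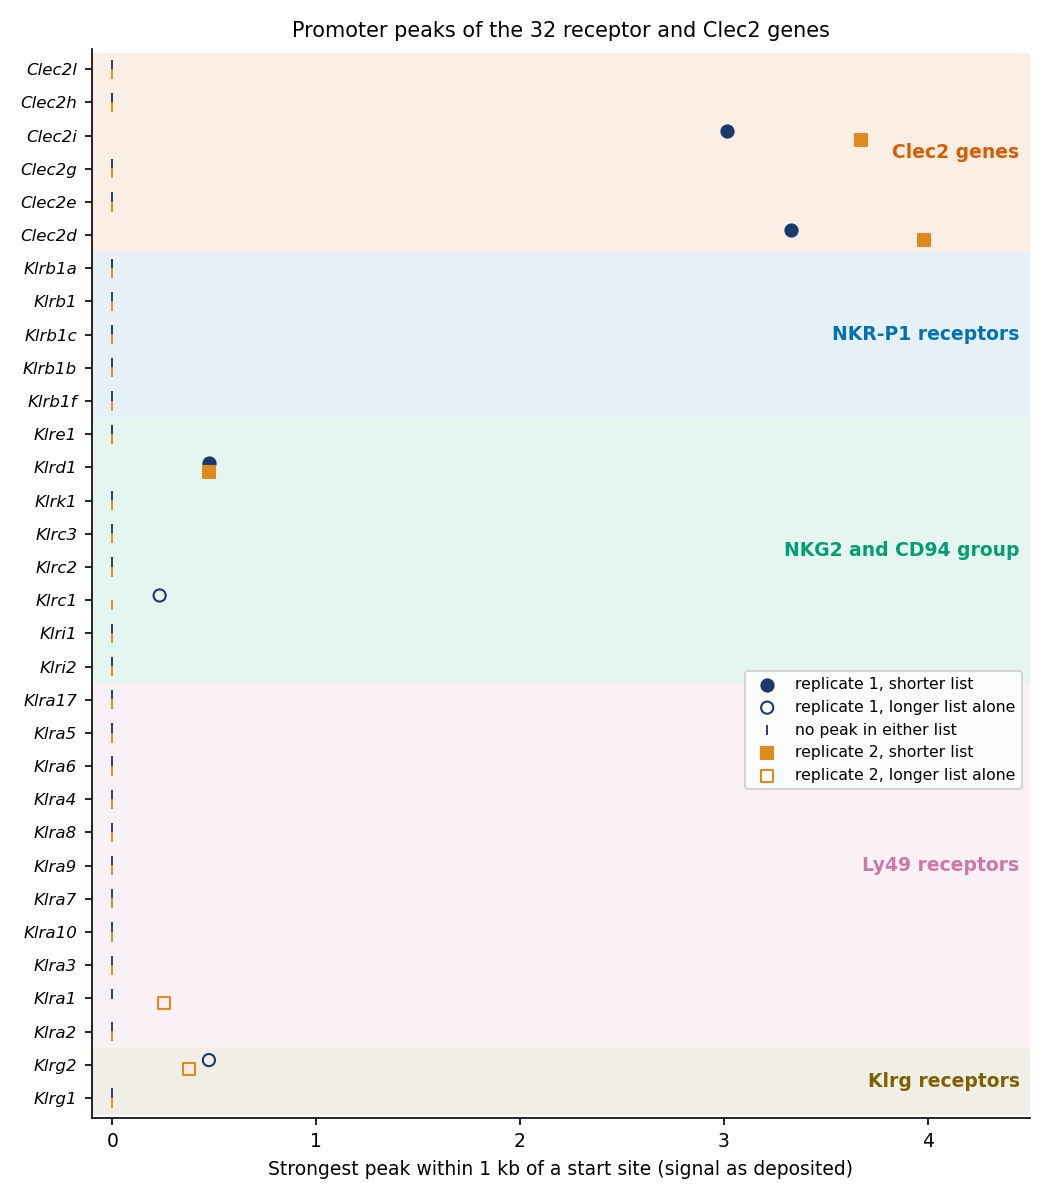
Signal of the strongest peak within 1 kb of a start site (x axis, signal as deposited) for each of the 32 genes (y axis, grouped by family and ordered by position). Filled points are peaks of the shorter list, open points peaks of the longer list alone and ticks at 0 genes with no peak in either list, with circles for replicate 1 and squares for replicate 2. Clec2i and Clec2d sit between 3.02 and 3.98, Klrd1 at 0.474 and 0.476, and 26 genes have no point above 0 in any list.

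Clec2d encodes Clr-b, the ligand of the inhibitory receptor NKR-P1B, and is widely expressed on blood cells. Its promoter peak had a signal of 3.33 in replicate 1 and 3.98 in replicate 2 (3.65 ± 0.460, n = 2). The libraries placed it at nearly the same bases, chr6:129180541-129180880 in replicate 1 and chr6:129180541-129180840 in replicate 2, across the gene start at base 129180615. Within 1 kb of the start, 863 and 1287 bases had a q-value under 0.05, and 4 and 12 footprints were listed. Another peak inside the gene, centred 1245 bp from the start, had signals of 1.14 and 1.45. Among genes with a promoter peak, the Clec2d signal stood at percentile 29.5 in replicate 1 and 40.3 in replicate 2, so it was below the median of such genes (5.69 and 5.08) in both libraries.

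Clec2i encodes Clr-g, a ligand of the receptor NKR-P1F. The Clec2i promoter peak had signals of 3.02 and 3.67 in replicates 1 and 2 (3.34 ± 0.465, n = 2), at chr6:128887481-128887660 and chr6:128887481-128887680, and it overlapped the gene start at base 128887588. Weaker peaks flanked it: replicate 1 held 2 promoter peaks in all and replicate 2 held 3. A peak at chr6:128889081-128889240, inside the gene, had signals of 1.56 and 1.97. The Clec2i and Clec2d promoters were thus alike in height, and the difference between the genes was smaller than that between the libraries.

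Klrd1 encodes CD94, the invariant partner of the NKG2 chains. Its promoter peak had signals of 0.474 and 0.476 (0.475 ± 0.00137, n = 2) and lay just before the start, at chr6:129591644-129591728 in replicate 1 and chr6:129591641-129591747 in replicate 2. The signal stood at percentile 0.766 and 1.17 among genes with a promoter peak, near the bottom. All signals in a library were whole multiples of 1 step, and the Klrd1 peak held 53 and 73 steps, against 372 and 610 for Clec2d. If 1 step were 1 independent cut, the counting error would be 13.7% and 11.7% for Klrd1 and 5.18% and 4.05% for Clec2d. The lowest q-value within 1 kb of the Klrd1 start was 5.7e-04 in replicate 1 and 9.4e-05 in replicate 2.

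Sequence upstream of these 3 starts is shown because these are the promoters that were open. Each line gives the 200 bases that end just before the first annotated start of the gene (GRCm38, plus strand, which is the strand of all 3 genes), with capitals where 1 of 11 short motifs matched on either strand. The parts of these windows that lay inside the replicate 1 peak were 74 bases for Clec2d, 107 for Clec2i and 85 for Klrd1.
Clec2d, chr6:129180415-129180614: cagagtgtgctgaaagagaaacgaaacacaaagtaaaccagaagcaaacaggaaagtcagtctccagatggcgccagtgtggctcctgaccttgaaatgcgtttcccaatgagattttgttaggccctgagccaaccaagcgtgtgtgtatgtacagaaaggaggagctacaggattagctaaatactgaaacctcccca
Clec2i, chr6:128887388-128887587: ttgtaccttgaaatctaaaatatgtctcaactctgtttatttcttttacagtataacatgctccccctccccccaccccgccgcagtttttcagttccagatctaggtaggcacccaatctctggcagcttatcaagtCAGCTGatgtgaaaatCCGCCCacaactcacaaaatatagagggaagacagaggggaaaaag
Klrd1, chr6:129591582-129591781: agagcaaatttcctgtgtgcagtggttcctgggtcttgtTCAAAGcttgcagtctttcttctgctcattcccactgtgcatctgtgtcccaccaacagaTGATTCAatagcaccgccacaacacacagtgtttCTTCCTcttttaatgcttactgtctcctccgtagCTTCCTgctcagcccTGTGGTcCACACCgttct

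The motifs were TGTGGT for RUNX factors, AGGAAG for the ETS family, CTTTGA for TCF7 and LEF1 and GGTGTG for T-box factors. E-boxes were searched as CAGCTG and, separately, with the letters CAGGTG. The AP-1 motif was TGANTCA, with N for any base. GATA factors were represented by AGATAA, and the core of the CTCF motif by AGGGGGC. Another 2, the CRE half-site TGACG and the GC box CCGCCC, were chosen after the sequences had been seen. The Klrd1 window held RUNX, TCF7 and LEF1, T-box and AP-1 matches and 2 ETS matches. Of these, the AP-1 match and the first ETS match lay inside the shorter-list peak of both libraries. The others lay outside it, though inside the wider peak of the longer lists. Among the 200-base windows before all 21668 gene starts, 10.5% held the RUNX motif, 24.4% ETS, 10.7% TCF7 and LEF1, 13.5% T-box and 4.78% AP-1. The AP-1 match overlapped a footprint in both libraries and the RUNX match in replicate 2 only. The Clec2i window held CAGCTG (9.94% of windows) and the GC box (37.8%), and the Clec2d window held none of the 11.

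The other receptor promoters had at most a trace. In the longer lists 4 of the 32 genes had a promoter peak in both libraries, beside 58.3% of all genes, and the gene added was Klrg2, with signals of 0.474 and 0.378. The strongest Klrg2 peaks of the libraries did not lie on the same bases, at chr6:38636941-38637040 in replicate 1 and chr6:38637115-38637280 in replicate 2. Klrc1, which encodes the inhibitory chain NKG2A, had a longer-list peak in replicate 1 alone, with a signal of 0.233. Klra1, the inhibitory Ly49A receptor, had one in replicate 2 alone, with a signal of 0.254. The remaining 26 genes had no promoter peak in any list of either library. None of these 26 had a base run with a q-value under 0.05 within 1 kb of a start either: such runs were present in both libraries for 4 of the 32 genes, beside 59.3% of all genes.

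By family, the open promoters were 2 of 6 Clec2 genes, 1 of 8 genes of the NKG2 and CD94 group, 0 of 5 NKR-P1 genes, 0 of 11 Ly49 genes and 0 of 2 Klrg genes. The NKG2 and CD94 group without a peak of the shorter list comprised Klrk1, which encodes the activating receptor NKG2D, the NKG2 chains Klrc1, Klrc2 and Klrc3, and Klre1, Klri1 and Klri2, whose products pair with each other. The NKR-P1 genes were Klrb1a, Klrb1, Klrb1b, Klrb1c, which encodes the NK1.1 antigen, and Klrb1f. The Ly49 genes were Klra1, Klra2, Klra3, Klra4, Klra5, Klra6, Klra7, Klra8, Klra9, Klra10 and Klra17, among them Klra8, whose product Ly49H recognises a cytomegalovirus protein, and Klra17, whose product Ly49Q is a receptor of plasmacytoid dendritic cells. The other Clec2 genes without a promoter peak were Clec2e, Clec2g, Clec2h and Clec2l. Klrg1, an inhibitory receptor of effector T cells and natural killer cells that binds cadherins, had no promoter peak, and the nearest peak lay 21.6 kb from its start in replicate 1 and 21.7 kb in replicate 2.

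Distances to the nearest peak differed between the families, in the same order in both libraries. The median distance from the start was 8.96 kb in replicate 1 and 7.01 kb in replicate 2 for Clec2 genes and 10.3 and 12 kb for NKR-P1 genes. It was 43.4 and 25.5 kb for the NKG2 and CD94 group and 107.9 and 449.3 kb for Ly49 genes. The medians of the libraries thus differed by more than 1.5 times for these last families. Single genes of the other families could differ more, as Klrb1a did, at 7.30 kb in replicate 1 and 113.4 kb in replicate 2. The Ly49 distances ran from 4.43 to 304.6 kb in replicate 1 and from 45.5 to 706.3 kb in replicate 2. Most Ly49 genes in a library shared 1 nearest peak, so their distances are not separate observations. In replicate 1 it was a weak peak near Klra7, found in that library alone, and both the shortest distance and the median rest on it. In replicate 2 it was a peak near Klrc1, with a signal of 0.476, and the median rests on it. The closest peak to an NKR-P1 start was at Klrb1f. It lay inside that gene, 3.39 kb from the start in replicate 1 and 3.38 kb in replicate 2, with signals of 1.22 and 1.24, and it is within 1 kb of the start of the antisense gene Gm44000. For Klrk1 the nearest peak lay 14.2 kb away in replicate 1 and 31.1 kb in replicate 2.

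Most promoters of these genes are poor in CpG, and many are in part present in several copies. The CpG observed over expected ratio, taken over 500 bp on each side of the gene start, had a median of 0.171 in the 32 genes and 0.558 in all genes, and the GC content 38.1% and 54.8%. Klrg2 and Clec2l were above the median ratio of all genes, at 0.753 and 0.756. Of the 32 genes, 19 were among the 5417 genes of lowest ratio (0.22 or lower). Of these 19, 2 were open (Clec2i and Klrd1), and among the 5417 genes 9.65% were open by the shorter lists, 12.1% by the longer lists and 12.9% by base runs with a q-value under 0.05. The share of 32-base windows around the start sites that occur once in GRCm38 had a median of 87.8% in the 32 genes and 98.4% in all genes. Klrc2 and Klrc3, which encode NKG2C and NKG2E, had 15.8% and 15.6%, and Klra8 had 44.8%. Klrg2 and Clec2l had 99.1% and 100%, and neither had a promoter peak of the shorter list. Where that share was under 90%, 2 of 16 receptor and Clec2 genes were open, beside 23.5% of all genes, and where it was 90% or more, 1 of 16 was open, beside 60.7% of all genes. How reads that fit several places were counted is not given in the sources used here, and the part of low CpG content and of repeated sequence in the missing peaks was not tested.

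**Figure D2:**
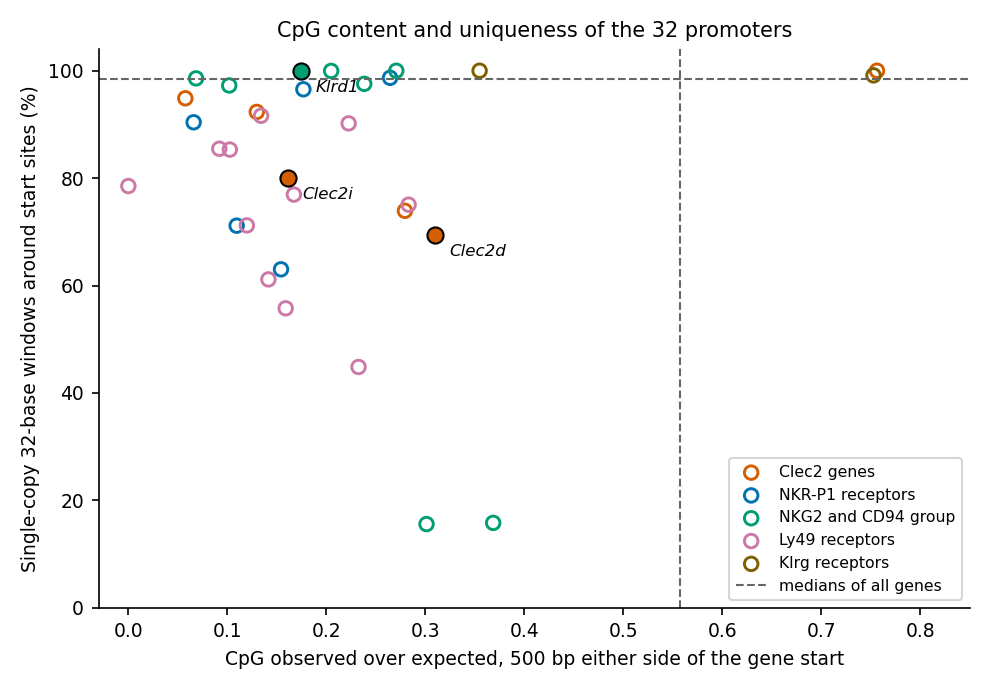
CpG observed over expected ratio within 500 bp of the gene start (x axis) and percent of 32-base windows around the start sites that occur once in the genome (y axis) for the 32 genes, coloured by family. Filled points are the 3 genes open in both libraries, open circles the others and dashed lines the medians of all protein-coding genes, 0.558 and 98.4%. The Ly49 genes lie between 0 and 0.283 on the x axis, and Klrc2 and Klrc3 lie lowest on the y axis, at 15.8% and 15.6%.

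Across the complex the peaks were crowded at one end. With 10 kb on each side, the complex spans 2658 kb. Replicate 1 had 49 peaks there and replicate 2 had 52, a density of 1.90 ± 0.0798 per 100 kb (n = 2), beside 1.70 ± 0.00472 on chromosome 6 and 1.91 ± 0.0213 on all named chromosomes. The section from Klrb1a to Clec2d, with NKR-P1 and Clec2 genes, held 31 and 34 peaks, or 5.63 ± 0.367 per 100 kb. The section from Clec2d to Klre1, which holds no receptor gene of this set, had 15 and 16 peaks, or 3.96 ± 0.181 per 100 kb. The NKG2 and CD94 genes from Klre1 to Klri2 had 2 peaks in each library, 1.23 per 100 kb, none of them above a signal of 0.537. The Ly49 genes from Klra17 to Klra1 span 555.7 kb and had 1 peak in replicate 1, with a signal of 0.385 near Klra7, and 0 in replicate 2. The 832.3 kb from there to Klra2 had 0 peaks in both libraries in the shorter lists and 4 in each in the longer lists.

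**Figure D3:**
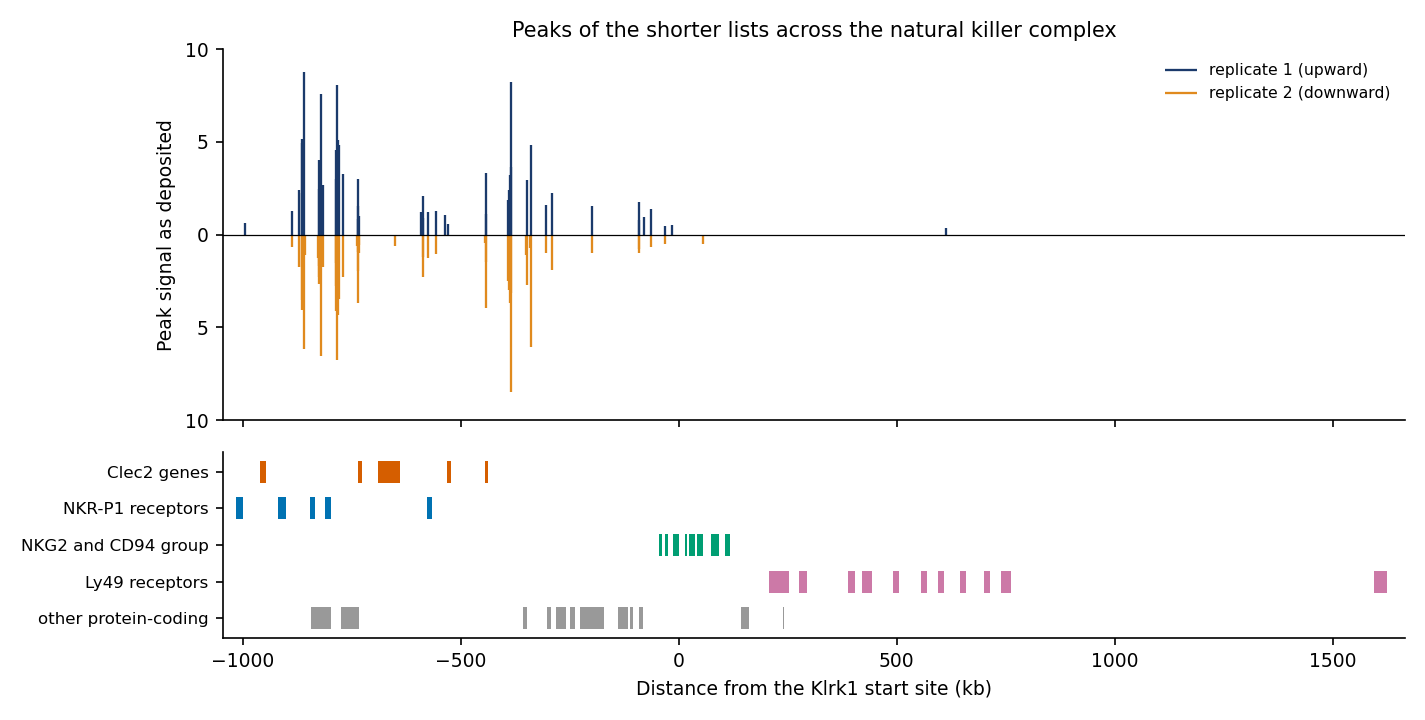
Peaks of the shorter lists (vertical lines, signal as deposited, upward for replicate 1 and downward for replicate 2) against distance from the Klrk1 start site in kb, with the genes of each family and the other protein-coding genes as boxes. Peaks crowd over the NKR-P1 and Clec2 genes on the left, up to a signal of 8.79, and over the Ly49 genes on the right there is 1 peak, of 0.385, in replicate 1.

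**Figure D4:**
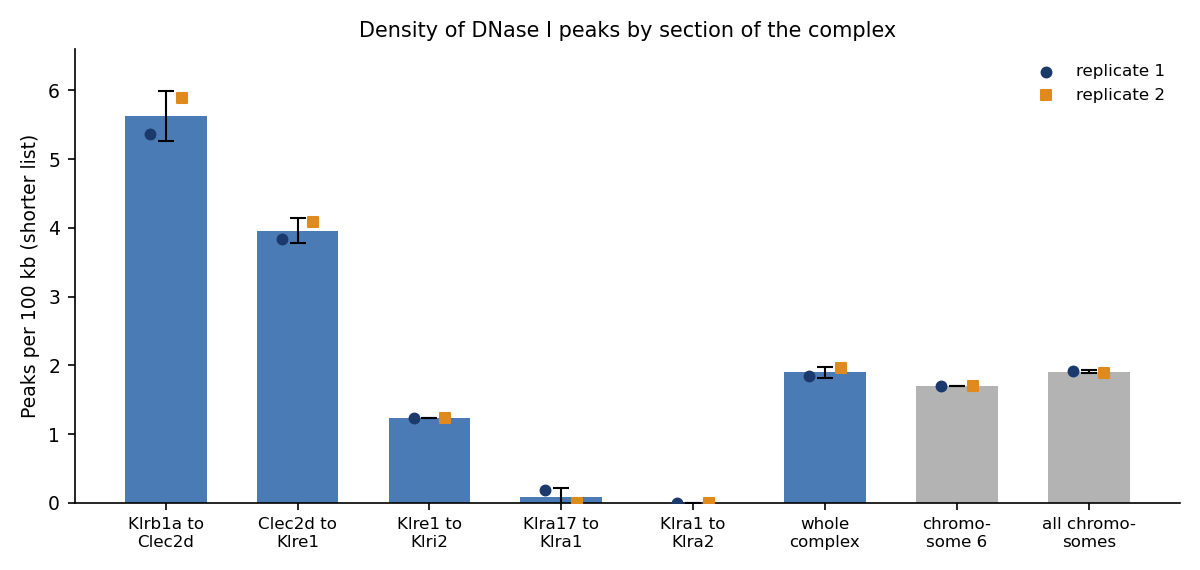
Peaks of the shorter list per 100 kb (y axis) in 5 successive sections of the complex, in the whole complex with its flanks, on chromosome 6 and on all named chromosomes. Bars are means, error bars the SD over the 2 libraries and points the libraries. The section from Klrb1a to Clec2d reaches 5.63 and the Ly49 sections 0.09 and 0, beside 1.91 on all named chromosomes.

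The share of sequence that occurs once differs between these sections and stands beside the densities. It was 71.9% from Klrb1a to Clec2d, 89.5% from Clec2d to Klre1, 75.6% from Klre1 to Klri2, 64.0% from Klra17 to Klra1 and 49.6% from Klra1 to Klra2. The part of repeated sequence in the densities was not tested.

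Most sites from Klrb1a to Clec2d lay away from protein-coding start sites. Merged over the libraries, the section held 40 sites, of which 25 were in both, and 31 of the 40 lay over 1 kb from any protein-coding start and had a receptor or Clec2 gene as the nearest gene (21 of these in both libraries). Of these 31, 2 lay within 1 kb of the start of a noncoding gene. The share of all peaks of the genome that lie so far from a start is not given here, so these counts have no like value beside them. Receptor and Clec2 genes make up 10 of the 12 protein-coding genes of the section, so the nearest gene would mostly be 1 of them. In the complex as a whole, 81.6% of replicate 1 peaks overlapped a replicate 2 peak and 76.9% the other way round, beside 79.4% and 80.7% in the genome. Of the 40 sites, 24 lay in 3 groups upstream of Klrb1, Klrb1c and Klrb1b, in intervals that were picked out after the peaks had been seen. These intervals held 20 of the 31 sites, and the other 11 were spread over the rest of the section. Between the start of Klrb1 and the end of Klrb1c (55.4 kb) there were 6 and 7 peaks, or 11.7 ± 1.28 per 100 kb. Between the start of Klrb1c and the end of Klrb1b (24.5 kb) there were 5 and 6 peaks, or 22.5 ± 2.89 per 100 kb. Between the starts of Klrb1b and Clec2i (61.3 kb) there were 7 and 10 peaks, or 13.9 ± 3.46 per 100 kb, the Clec2i promoter peaks included. The 3 genes downstream of these groups, Klrb1, Klrb1c and Klrb1b, had no promoter peak in any list. The protein-coding genes Gm44511 and BC035044 run through the intervals after Klrb1c and Klrb1b; Gm44511 had no promoter peak, and BC035044 starts inside Clec2i.

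**Figure D5:**
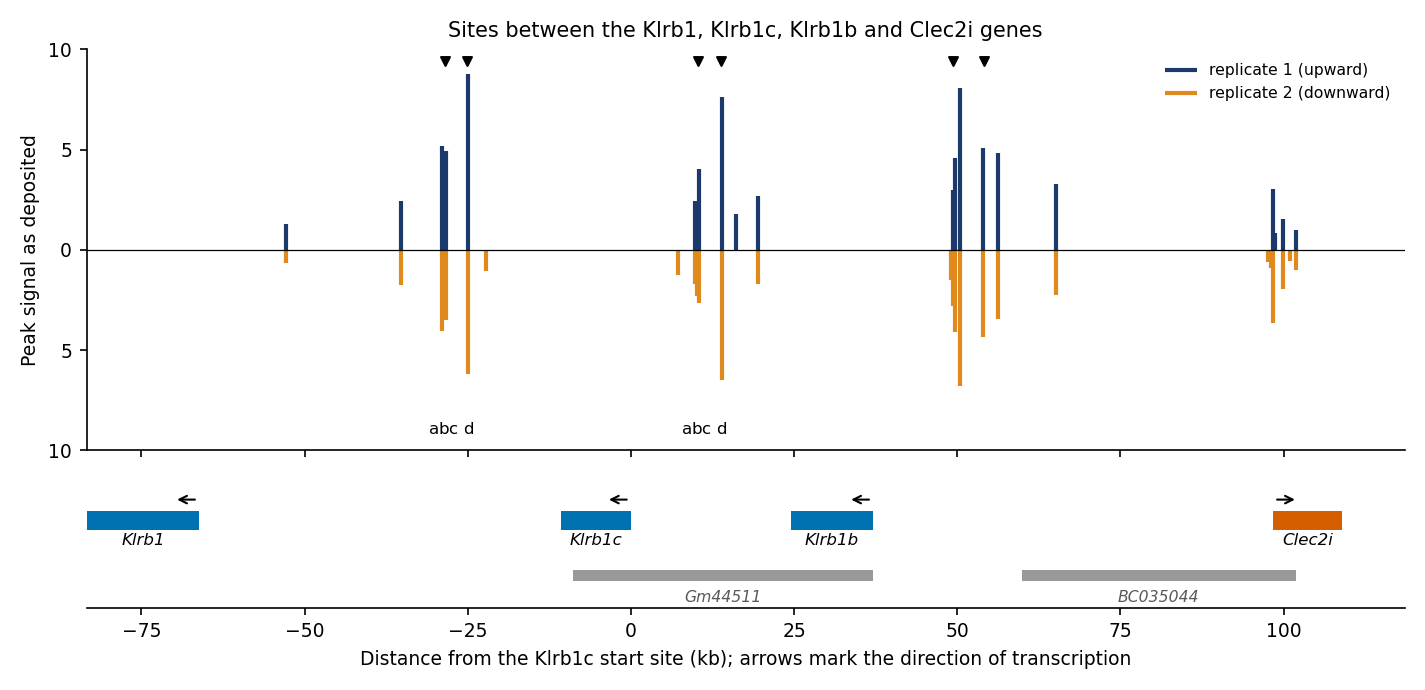
Peaks of the shorter lists (vertical lines, signal as deposited, replicate 1 upward and replicate 2 downward) against distance from the Klrb1c start site in kb. Letters a to d mark matching sequences upstream of Klrb1 and of Klrb1c, triangles the copies of a shared 100-base stretch at 96% identity or more and grey boxes the protein-coding genes Gm44511 and BC035044. The highest line of each group reaches 8.79, 7.60 and 8.05 in replicate 1, and no line stands at the starts of Klrb1, Klrb1c and Klrb1b.

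The 6 strongest sites of the complex that were in both libraries and nearest to a receptor or Clec2 gene were all in these groups. The highest lay upstream of Klrb1 and beyond the end of Klrb1c, 24.4 kb from the Klrb1c start. It had signals of 8.79 and 6.19 in replicates 1 and 2 (7.49 ± 1.84, n = 2). Close behind were a site 13.4 kb from the Klrb1b start, with 8.05 and 6.78 (7.42 ± 0.898), and a site 14.5 kb from the Klrb1c start, with 7.60 and 6.52 (7.06 ± 0.764). These 3 do not differ beyond the spread between the libraries, and each stood at or above percentile 89.2 of all peaks of its library. A site 16.9 kb from Klrb1b had 5.09 and 4.33 (4.71 ± 0.538), and it is also within 1 kb of the starts of the long noncoding RNA genes Gm44066 and Gm26656. A site 28.4 kb from the Klrb1c start, also upstream of Klrb1, had 5.16 and 4.05 (4.61 ± 0.786). A site 12.7 kb from Klrb1b had 4.58 and 4.11 (4.35 ± 0.334).

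The sequences of these 6 sites are shown because they carry the strongest accessibility near any receptor gene. Each line is the 200 bases around the centre of the replicate 1 peak (GRCm38, plus strand), with capitals where 1 of the 11 motifs matched on either strand. The gene named is the one with the nearest start, whichever side of it the site lies on.
Klrb1c site, chr6:128764181-128764380: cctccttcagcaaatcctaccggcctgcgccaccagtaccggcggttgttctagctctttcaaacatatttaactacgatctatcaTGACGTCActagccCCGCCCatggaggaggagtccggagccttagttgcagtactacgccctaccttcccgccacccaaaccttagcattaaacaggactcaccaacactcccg
Klrb1b site, chr6:128839601-128839800: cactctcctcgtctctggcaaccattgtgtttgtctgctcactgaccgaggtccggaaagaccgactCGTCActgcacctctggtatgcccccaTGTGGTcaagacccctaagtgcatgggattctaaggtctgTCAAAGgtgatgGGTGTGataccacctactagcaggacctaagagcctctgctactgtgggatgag
Klrb1c site, chr6:128803071-128803270: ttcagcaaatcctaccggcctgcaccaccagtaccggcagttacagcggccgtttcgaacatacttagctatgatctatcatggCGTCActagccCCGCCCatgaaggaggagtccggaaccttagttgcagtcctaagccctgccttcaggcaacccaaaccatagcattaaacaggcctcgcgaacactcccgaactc
Klrb1b site, chr6:128843101-128843300: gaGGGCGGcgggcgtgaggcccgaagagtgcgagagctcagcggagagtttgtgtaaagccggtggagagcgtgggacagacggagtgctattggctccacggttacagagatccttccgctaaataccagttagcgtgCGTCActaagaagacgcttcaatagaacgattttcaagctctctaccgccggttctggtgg
Klrb1c site, chr6:128760111-128760310: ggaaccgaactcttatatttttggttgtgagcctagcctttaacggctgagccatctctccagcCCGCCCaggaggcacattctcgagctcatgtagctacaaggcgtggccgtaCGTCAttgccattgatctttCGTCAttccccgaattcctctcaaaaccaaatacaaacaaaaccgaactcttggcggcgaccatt
Klrb1b site, chr6:128838921-128839120: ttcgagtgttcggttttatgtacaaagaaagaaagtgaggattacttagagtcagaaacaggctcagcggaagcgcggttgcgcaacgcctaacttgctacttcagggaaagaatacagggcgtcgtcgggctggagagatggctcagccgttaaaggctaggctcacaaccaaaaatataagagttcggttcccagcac

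Of the 9 motifs searched first, RUNX, TCF7 and LEF1, and T-box matched in 1 of the 6 windows, chr6:128839601-128839800, where the RUNX match overlapped a footprint in both libraries. The other 6 of the 9 motifs matched in 0 of the 6 windows. Among 50629 windows of the same length around replicate 1 peaks, 15.9% held RUNX, 11.0% TCF7 and LEF1, 15.6% T-box, 30.9% ETS, 16.3% CAGCTG, 22.97% CAGGTG, 4.69% AP-1, 4.90% GATA and 13.8% the CTCF core. The CRE half-site TGACG matched in 5 of the 6 windows, beside 15.2% of all windows, and the GC box CCGCCC in 4 of the 6, beside 30.1%. Both were chosen after the windows had been read, and windows that are copies of each other are not independent, so these counts only describe the 6 sites. In the strongest window the TGACG matches on the 2 strands overlapped, and they and the GC box lay in footprints in both libraries. Of the 6 windows, 5 had 11 to 17 CpG, with observed over expected ratios of 0.789 to 1.11, beside medians of 6 and 0.423 over all windows of replicate 1 peaks. The window at chr6:128839601-128839800 was below these medians, with 5 CpG and a ratio of 0.343.

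Sites upstream of Klrb1 had copies in the same order upstream of Klrb1c. Of the 25 sites in both libraries that were nearest to a receptor or Clec2 gene, 13 had a copy elsewhere in the complex (at least 80% identity over at least 50% of the site), 14 copies in all. Of these copies, 7 held a peak in both libraries and 3 had no peak in any list. The 7 are 4 distinct pairs of sites, since 3 pairs were found from each side. The remaining pair lay upstream of Klrb1b, where chr6:128838395-128838660 matched chr6:128843287-128843496 with 93.8% identity. The 3 pairs found from each side match sequence upstream of Klrb1 with sequence upstream of Klrb1c. Together with a pair whose copy had a peak in replicate 2 alone, they make 4 matched positions, 38.7 to 38.9 kb apart. The identities of these 4 ran between 88.3% and 98.3%, lowest at the strongest pair. The first site had signals of 5.16 and 4.05 upstream of Klrb1, and its copy upstream of Klrb1c had 2.44 and 1.69. In that site and its copy, 71.1% and 71.3% of 32-base windows occur once in the genome. The second had 2.26 and 1.75, and its copy had a peak in replicate 2 alone, of 2.28, with 43.5% and 42.7% of windows occurring once. The third had 4.93 and 3.50, and its copy 4.04 and 2.67, with 64.1% and 71.5% of windows occurring once. The fourth and strongest had 8.79 and 6.19, and its copy 7.60 and 6.52, with 88.0% of windows occurring once in each. The part of reads that fit both copies in these signals was not tested.

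The copy of the strongest window is shown to let the pair be read base by base, with capitals at bases that differ from, or are added to, the window at chr6:128764181-128764380. The alignment had 27 differences, 86.7% identity, and 97.0% of the 32-base windows of each occur once in the genome. The TGACG match of the plus strand is lost in the copy by an A-to-G difference, and that of the minus strand and the GC box are kept.
Copy upstream of Klrb1c, chr6:128803066-128803265: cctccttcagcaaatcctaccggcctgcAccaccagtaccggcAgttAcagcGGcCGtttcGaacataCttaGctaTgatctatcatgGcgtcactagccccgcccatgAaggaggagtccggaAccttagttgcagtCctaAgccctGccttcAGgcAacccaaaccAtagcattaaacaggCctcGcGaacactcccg

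A 100-base stretch at the edge of the strongest site recurred further. At 96% identity or more there were 6 copies in the complex, the stretch itself included, 2 in each of the 3 groups. A shorter-list peak overlapped all 6 in replicate 1 and 4 in replicate 2. Since the stretch was taken from the strongest site, its own overlap in both libraries was fixed by the choice. The stretch is largely soft-masked as an interspersed repeat (82%), and 24 matches in the complex at 62.1% to 70.8% identity had no peak in any list. At 90% identity over at least 90% of its length, 40 copies lay elsewhere in the genome, of which 3 overlapped a peak in both libraries. In the 6 close copies between 5.80% and 53.6% of 32-base windows occur once, so many reads from inside the stretch would fit several places. The stretch is shown in 3 copies, read 5′ to 3′ on the strand that matches, with capitals at bases that differ from, or are added to, the first.
Strongest site, chr6:128764124-128764223 (plus strand): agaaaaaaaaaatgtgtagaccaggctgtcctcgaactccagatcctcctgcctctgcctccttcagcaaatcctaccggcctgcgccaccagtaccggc
Copy at chr6:128803010-128803108 (plus strand): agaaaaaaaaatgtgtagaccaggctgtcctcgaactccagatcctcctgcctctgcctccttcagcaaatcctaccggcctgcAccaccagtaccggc
Copy at chr6:128843287-128843386 (minus strand): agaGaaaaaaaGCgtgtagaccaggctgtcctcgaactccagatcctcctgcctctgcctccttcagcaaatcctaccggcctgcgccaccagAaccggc

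The Clec2 promoters had copies too, and these had no peak. The Clec2d promoter peak matched sequence at the start of Clec2g, at chr6:128934347-128934612 with 85.2% identity, and at the start of the pseudogene BC064078, at chr6:128992953-128993236 with 88.2% identity. Part of the Clec2i promoter peak matched chr6:128970632-128970797, 445 bp from another Clec2g start, with 80% identity. None of these 3 copies overlapped a peak of any list. Of their 32-base windows, 75.3%, 75.9% and 80% occur once, and the part of repeated sequence in the missing peaks was not tested. Inside Clec2i, the site at chr6:128889081-128889240 (1.56 and 1.97) had a 97.5% identical copy inside Clec2g with a peak in replicate 2 alone, of 0.626. In that site and its copy, 58.9% and 59.2% of 32-base windows occur once, and the part of repeated sequence in their difference was not tested.

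The genes of the receptors' ligands and signalling partners were read in the same way. Open promoters were found in both libraries at 11 of 13 adaptor and signalling genes and at 5 of the 9 listed ligand genes found in the annotation, beside 53.8% of all genes. Lck is also among the thymocyte and T cell genes counted above, so these lists are not separate. Hcst, which encodes the DAP10 adaptor of NKG2D, had promoter signals of 2.11 and 2.22 (2.16 ± 0.0750), and Tyrobp, which encodes the DAP12 adaptor of activating Ly49 receptors, had 1.66 and 1.75 (1.71 ± 0.0639). The kinase genes Lck (7.92 and 8.96), Zap70 (4.08 and 4.54) and Syk (3.83 and 3.66) and the phosphatase gene Ptpn6 (5.44 and 6.09), whose product acts downstream of inhibitory receptors, were open, and so were Cd247, Inpp5d, Ptpn11, Sh2d1a and Vav1. Fcer1g and Sh2d1b1 had no promoter peak in any list. Of the ligand genes, the MHC class I genes H2-D1 (12.1 and 11.3), H2-K1 (4.06 and 5.59) and B2m (7.46 and 6.70) were open, as was H2-T23, whose product Qa-1 binds the CD94 and NKG2 pairs (2.84 and 3.18). Of the NKG2D ligands, Ulbp1 was open (5.30 and 4.33), Raet1e and H60b had a longer-list peak of 0.394 in replicate 1 alone, and Raet1d and H60c had none.

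Most of the other genes of natural killer cells lacked a promoter peak of the shorter list in both libraries. Prf1, which encodes perforin (2.49 and 3.14), and Nfil3 (1.71 and 1.36) were open. So were the integrin gene Itga2 (1.25 and 0.698) and the interleukin receptor gene Il2rb (0.975 and 1.20). These are 4 of 14, beside 53.8% of all genes. Eomes, Tbx21 and Gzma had longer-list peaks in both libraries, and of these Eomes alone had a shorter-list peak, of 1.02 in replicate 1. Ncr1, Nkg7, Gzmb, Fcgr3, Cd244a, Slamf7 and Zfp683 had no promoter peak in any list. The number of natural killer cells in the tissue was not measured.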

How the data were processed

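DNase-seq of whole thymus gave 2 libraries of female mice, treated as 1 group. Per the file notes, files were made per library from alignments to mm10, and the sources used here name no aligner, peak caller, threshold or depth. Peak signal values are those the authors deposited, all whole multiples of 1 step per library (0.00895 and 0.00652) within 0.1 steps. The deposited base runs carry a q-value under 0.05. The deposited footprints carry the constant 0.01, so only positions were used.

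Genes came from the GENCODE vM21 basic annotation and sequence from GRCm38, without the Y chromosome, since the mice were female. Coordinates count from 1. Peaks belong to a promoter if their centre is within 1 kb of a start site of any protein-coding transcript, and to several promoters where starts are close. The strongest one gives the promoter signal. Sites are peaks of both libraries merged where they overlap by at least 1 bp. The complex is the run of member genes around Klrk1 with gaps under 1 Mb, with 10 kb on each side. Copies were found with BLAST+ 2.17.0 and aligned with edlib 1.3.9.post1 and single-copy windows counted with numba 0.67.0. Exact binomial intervals came from scipy 1.17.1. The assignment of peaks to start sites was tested on simulated data.

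With 1 group no test between groups was possible; shares stand beside those of all 21668 genes. Every member with a promoter peak was named with its values and all others by family; sequences were those of the 6 strongest shared sites nearest a member and of the open promoters, the latter cut before the start. The members, lists and motifs were chosen with earlier results of these data known. Alternatives varied the list, window, overlap, start sites, strength, joining, flanks and library. One match to the shared 100-base stretch is not reported here.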

Additional observations from a re-analysis of the deposited data

How the results depend on the processing

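The number of receptor and Clec2 genes with a promoter peak in both libraries was 3, and was 2 to 4 under the 9 alternatives (longer list, windows of 500 and 2500 bp, overlap in place of the peak centre, overlapping peaks required, gene start alone, the stronger 50% of peaks, and each library alone, which gave 3 and 3). The stronger 50% of peaks left 2, beside 46.6% of all genes, and the longer list gave 4, beside 58.3%. Windows of 500 and 2500 bp gave 3 each, beside 52.5% and 55.9% of all genes. The shares of all genes for replicates 1 and 2 alone were 55.4% and 55.1%. For overlap in place of the centre, overlapping peaks and the gene start alone, the share of all genes is not given here. The density over the complex, 1.90 peaks per 100 kb, was 1.84 to 1.96 when 1 library was left out and 1.91 without flanks. It was 3.39 with the longer lists, beside 2.97 on all named chromosomes. It was 1.09 with the stronger 50% of peaks and 1.47 with peaks within 500 bp joined. Chosen after seeing the data, it was 2.81 when the complex was ended at Klra1 and 2.88 per 100 kb of single-copy windows. For stronger peaks, joined peaks and single-copy windows the density of all chromosomes is not given here, so these values have no like value beside them. Of 15 recomputed signals of Clec2d, Clec2i and Klrd1, 15 stayed within 1 SD, though with 2 libraries each left-out value lies within 1 SD by construction. No paired analysis was possible because there is 1 group. Depth is unknown, so an absent peak was not detectable here and is not shown to be closed chromatin.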

Other observations

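Other genes of the natural killer complex held peaks that do not belong to the receptors. Of 14 other protein-coding genes in it, 3 were open, beside 53.8% of all protein-coding genes. Cd69, an early activation marker of T cells that is also induced during thymic selection, had signals of 2.97 and 2.73 (2.85 ± 0.173, n = 2). Gabarapl1, an autophagy gene, had 1.78 and 0.965 (1.37 ± 0.576). BC035044, which starts inside Clec2i, had 1.00 and 0.998 (1.00 ± 0.00294). The highest peak between Clec2d and Klre1 had signals of 8.25 and 8.49 at chr6:129237901-129238180, within 1 kb of the starts of the noncoding genes 2310001H17Rik and Gm47861. None of the 4 annotated Klrb1 and Klra pseudogenes, Klrb1-ps1, Klra11-ps, Klra13-ps and Klra14-ps, had a promoter peak in any list.

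The libraries differed in a way that changed along the complex. After the genome-wide median log2 ratio of replicate 2 to replicate 1 (-0.17) was subtracted, 14 of the 17 shared sites in the 3 intervals upstream of Klrb1, Klrb1c and Klrb1b were lower in replicate 2, with a median of -0.30. Of the 8 shared sites from there to Clec2d, 7 were higher in replicate 2, with a median of 0.35. Over 37478 matched peaks of the genome the SD of this log2 ratio was 0.44, so these are ordinary differences for single sites. The split was noticed in the data, and its cause was not tested.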
